A study of Homo sapiens with 6 samples.

Results

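The Notch genes described here are the receptors NOTCH1, NOTCH2 and NOTCH3, the ligands JAG1, JAG2, DLL1 and DLL4, and the target genes HES1, HEY1 and NRARP. They were chosen by symbol and are 10 of the 56638 gene symbols with RNA-seq counts in HCT116, a cell line from a human colorectal carcinoma. 3 wild-type (WT) samples were compared with 3 METTL3 knockout (METTL3-KO) samples, both at the same range of passages and with no other treatment named. METTL3 is the catalytic subunit of the enzyme that writes N6-methyladenosine (m6A) on mRNA. By the labels the knockout was made with CRISPR-Cas9, and by the study's methods with a lentiviral vector and puromycin selection, as a single clone, whose replicates would share every other change of that clone. The names of the deposited count files abbreviate the groups in another way, which reads as an interfering RNA against METTL3 and a negative control. This was not resolved, and the groups are named here as labelled. Nothing says that the replicates came from separate cultures, and p-values measure only the spread between these samples. All 10 genes passed the minimum of 5 counts in a condition and were tested among 22452 genes.

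Notch is a receptor on one cell that is activated by a ligand on its neighbour. Ligand binding exposes the receptor to ADAM10 and then to gamma-secretase, which frees the intracellular domain. This fragment enters the nucleus, joins the DNA-binding protein RBPJ and a Mastermind (MAML) co-activator, and switches on HES and HEY genes and NRARP. In the intestinal crypt, Notch signalling keeps progenitors undifferentiated, and HES1 holds back ATOH1, the factor that starts the secretory lineages.

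DLL4 was the one member that passed the test in METTL3-KO cells, with a rise of 1.34-fold (4.17 ± 0.364 against 5.58 ± 0.642 counts scaled to library size, CPM, mean ± SD, n = 3 each), and it did not pass in every alternative fit. HES1 was 1.18-fold higher in WT than in METTL3-KO cells and did not pass with all 6 libraries. It passed in 4 of 15 fits. These were the fit corrected for transcript length and GC content, and those that left out the third replicate of either group or of both. No receptor passed, except NOTCH2 when genes were not filtered on low counts. Its log2 fold change was -0.26 with or without that filter, while the SE was 0.163 with it and 0.0883 without it. With the filter but without WT replicate 3, the log2 fold change of NOTCH2 was 0.007. Around these genes, ADAM10 and the gamma-secretase subunit NCSTN fell while another subunit, APH1B, rose. Of 8 co-repressors of the pathway, 4 rose and 1 fell. Of 10 secretory and stem genes of the intestine, DLL4 among them, 5 rose, such as MUC2, and 1, LGR5, fell. Of all tested genes, 13.3% rose and 13.2% fell, and 38.2% of those with a mean of at least 1 CPM passed in either direction. The lists of co-repressors and of secretory and stem genes were written with earlier results of these data known. Their counts cannot be read as a result about the pathway. In bulk samples, fewer cells that express a gene and less RNA per cell cannot be told apart.

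The libraries held 20936091 to 30142144 counts on genes. METTL3 itself had 841, 682 and 623 counts in WT replicates 1 to 3 and 219, 169 and 162 counts in METTL3-KO replicates 1 to 3, a log2 fold change of -2.04 (SE 0.0906) that left 0.243 of the WT level. Replicate 3 stood apart from replicates 1 and 2 in both groups: a chi-square per gene of 2.44 and 2.23 separated replicates 1 and 2, and one of 7.61 to 20.8 separated replicate 3 from them. In WT replicate 3 the 25% of genes with the longest exons had a median deviation of 0.121 from the mean of its group (log2 CPM), and the shortest 25% one of -0.142. In METTL3-KO replicate 3 the medians were -0.0585 and 0.0964, in the opposite direction. The cause was not tested. The 8 epithelial markers (EPCAM, KRT8, KRT18, KRT19, CDH1, VIL1, CDX1 and CDX2) together came to 5800 to 7193 CPM in WT and 8297 to 9253 in METTL3-KO libraries. Of these sums KRT8 alone gave 3478 to 4491 and 4971 to 5655 CPM. Among the epithelial markers 4 (KRT8, KRT19, CDH1 and VIL1) passed as higher, against 13.3% of all tested genes. The summed levels in WT and METTL3-KO libraries were 0 to 0.0938 and 0.0663 to 0.182 CPM for 4 endothelial markers. For 6 fibroblast and mural markers they were 5.21 to 6.63 and 6.90 to 8.25 CPM, of which COL1A1 alone gave 4.69 to 7.87. For 4 blood cell markers they were at most 10.5 CPM, of which CD14 alone gave 5.11 to 9.95. Only 1, 3 and 2 markers of these lists had enough counts to be tested, and 0 passed. The part of these markers in the results below was not tested.

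The sequences bound by the pathway's factors are shown for the members whose promoters hold them. RefSeq promoter windows of 250 bases before to 50 after the start (GRCh38.p14) were found for 8 of the 10 members. RBPJ binds TGGGAA, most strongly as GTGGGAA, which contains it, and HES and HEY proteins repress through sites such as CACGCG. Both strands were searched for these letters and for the E-box CACGTG. A match to TGGGAA was found in 1 of the 8 windows, that of HES1, against 24% of all 35116 promoters, and GTGGGAA in the same 1, against 6.25%. The HES1 window holds TGGGAA 2 times, starting at positions -84 and -70 relative to the start, and 1 stretch of 30 bases covers both. CACGCG was found in 5 of 8, against 11.4% of promoters, and CACGTG in 0 of 8, against 7.26%. In the following lines capitals mark the match, written on the strand of the gene, where CGCGTG is CACGCG read on the other strand. The first line is the RBPJ-type stretch of HES1 and the others are HES-type matches.
HES1, chr3:194136059-194136088, plus strand: tactgTGGGAAagaaagttTGGGAAgtttc
HES1, chr3:194136021-194136040, plus strand: gcggtgcCGCGTGtctcctc
NRARP, chr9:137302249-137302268, minus strand: gctgcggCGCGTGgggaggc
JAG2, chr14:105169000-105169019, minus strand: gccgactCACGCGgaggtgt
DLL4, chr15:40929099-40929118, plus strand: acctcggCACGCGcagagct
HES1 and NRARP each hold a further CACGCG. Both matches in NRARP (10 and 33 bases) and the match in JAG1 (39 bases) lie past the start. These are matches of letters and say nothing of binding in these cells.

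Levels of different genes can be set side by side only per length, and were taken as CPM per kilobase of exon (CPM per kb). In WT cells the order was NRARP (23.3 ± 3.65 CPM per kb), HES1 (22.8 ± 2.20), JAG2 (6.11 ± 0.596), NOTCH2 (5.26 ± 1.54), NOTCH1 (4.83 ± 0.458), JAG1 (4.05 ± 0.830), DLL4 (0.878 ± 0.0766), DLL1 (0.233 ± 0.0329), NOTCH3 (0.148 ± 0.00936) and HEY1 (0.0539 ± 0.0163) (mean ± SD, n = 3). The targets NRARP and HES1 lay within their spread of each other and above every receptor and ligand. JAG2 and NOTCH2 lay within their spread of each other, as did NOTCH2 and NOTCH1, and NOTCH1 and JAG1. DLL4, DLL1, NOTCH3 and HEY1 followed, each below the gene before it by more than the SDs of both. In METTL3-KO cells NRARP (21.8 ± 2.07), HES1 (19.4 ± 1.73) and JAG2 (6.12 ± 0.228) again led, and HEY1 (0.0524 ± 0.0119) was lowest. This order rests on the union of all annotated exons as length. With the longest transcript as length, HES1 lay above NRARP beyond their spread, at 56.1% ± 1.67 against 43.7% ± 1.66 of the summed target level in WT and 53.8% ± 0.931 against 46.1% ± 0.932 in METTL3-KO cells. JAG1 and JAG2 then lay within their spread of each other in METTL3-KO cells, at 44.6% ± 2.15 and 43.2% ± 3.10 of the summed ligand level.

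**Figure D1:**
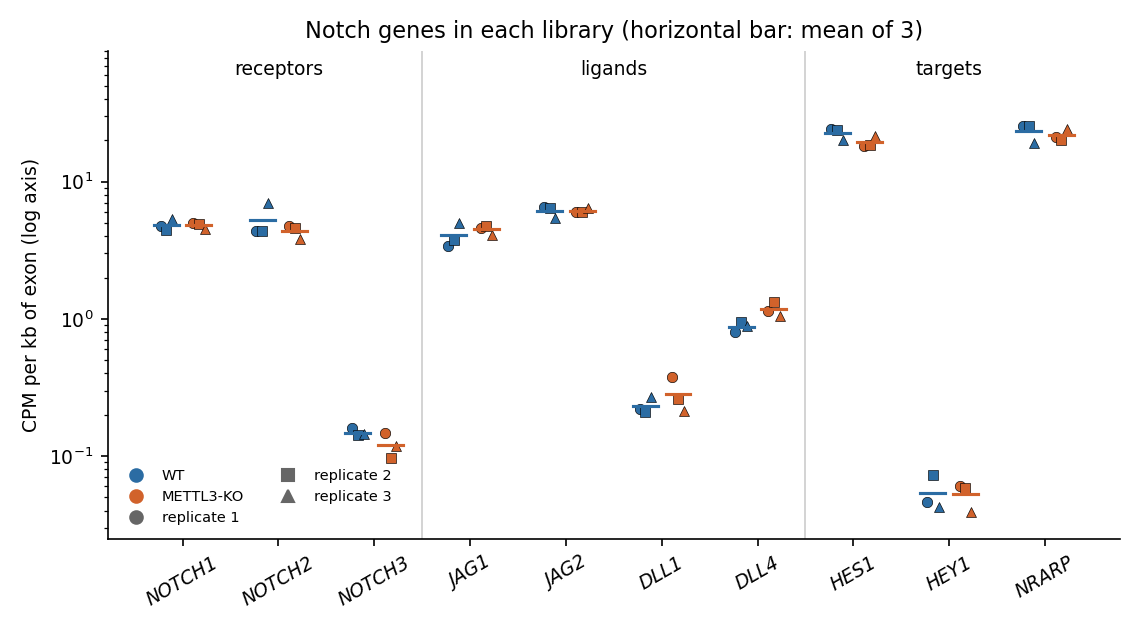
Level of each Notch gene in CPM per kilobase of exon (log axis) in the WT (blue) and METTL3-KO (orange) libraries, with replicates 1 to 3 as circle, square and triangle and the mean of 3 as a bar. The groups overlap for every gene but DLL4, and the triangles of replicate 3 often lie away from the other symbols.

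The receptors were compared first. NOTCH1 (chromosome 9, 139388885 to 139440500 of GRCh37, minus strand) is the receptor most studied in the intestinal crypt, where it acts together with NOTCH2. Its level was 59.3, 55.4 and 66.7 CPM in WT replicates 1 to 3 and 62.7, 61.9 and 56.7 CPM in METTL3-KO replicates 1 to 3. The METTL3-KO values lay inside the WT range. Between the groups the log2 fold change was -0.0002, with a 95% confidence interval from -0.19 to 0.19 (edgeR adjusted p = 0.999).

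NOTCH2 (chromosome 1, 120454176 to 120643366, minus strand) was at 72.9, 73.3 and 118 CPM in the WT against 79.4, 76.7 and 63.7 CPM in the METTL3-KO libraries. WT replicate 3 alone lay high, 1.61 times the mean of the other WT libraries, and the other 5 libraries overlapped. With all libraries its log2 fold change was -0.26 (SE 0.163, edgeR adjusted p = 0.270), against 0.007 (edgeR adjusted p = 0.958) without WT replicate 3. Corrected for length and GC content, NOTCH2 was at 78.1, 78.2 and 108 CPM in the WT against 74.9, 74.4 and 66.2 CPM in the METTL3-KO libraries. These groups no longer overlapped, as was the case downwards for 24.8% of the annotated genes tested, and WT replicate 3 still lay high. The log2 fold change was then -0.30 (edgeR adjusted p = 0.0624). With no filter beyond 1 count NOTCH2 passed (log2 fold change -0.26, edgeR adjusted p = 0.0204), with an SE of 0.0883 in place of 0.163. Its exons are the longest of the members, 16744 bases in all. It also shares sequence with NOTCH2NL, a partial copy counted as a gene of its own. Reads that aligned to several places were not counted, so the NOTCH2 count leaves out reads that aligned to both. NOTCH2NL had 97, 92 and 180 counts in the WT against 109, 76 and 46 in the METTL3-KO libraries, highest in WT replicate 3 as well.

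NOTCH3 (chromosome 19, 15269849 to 15311806, minus strand), a receptor best known from vascular smooth muscle, was near the floor of detection. It had 41, 30 and 29 counts in the WT against 42, 20 and 26 in the METTL3-KO libraries. The groups overlapped, and the log2 fold change was -0.28 with a 95% confidence interval from -0.79 to 0.23. A change of up to that size was not detectable at this depth. The remaining receptor, NOTCH4, had 17 to 40 counts and a log2 fold change of -0.18 (SE 0.314).

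As shares of the summed receptor level per kb, NOTCH1 made up 47.7% ± 4.54 in WT against 51.8% ± 1.55 in METTL3-KO cells (mean ± SD over 3 libraries). NOTCH2 made up 50.8% ± 4.83 and 46.9% ± 1.58. NOTCH3 made up 1.48% ± 0.292 and 1.30% ± 0.258. The groups overlapped for each receptor. With the longest transcript as length, NOTCH2 stood above NOTCH1 in WT cells, at 54.4% ± 4.77 against 44.4% ± 4.53. In METTL3-KO cells NOTCH2 was then at 50.5% ± 1.59 and NOTCH1 at 48.5% ± 1.56. The larger mean share in METTL3-KO cells thus depended on the length taken, as did the larger share in WT replicates 1 and 2. With all exons as length, NOTCH1 and NOTCH2 were at 51.18% and 47.1% in WT replicate 1. They were at 49.45% and 48.97% in WT replicate 2, and at 42.59% and 56.25% in WT replicate 3.

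Among the ligands, JAG1 (chromosome 20, 10618332 to 10654647, minus strand) and JAG2 (chromosome 14, 105607319 to 105635161, minus strand) are the Jagged type, with an additional cysteine-rich domain that the Delta-like ligands lack. JAG1 was at 31.6, 35.0 and 46.3 CPM in the WT against 42.9, 44.2 and 37.8 CPM in the METTL3-KO libraries. WT replicate 3 was the highest of all 6 libraries and METTL3-KO replicate 3 the lowest of its group, so that the groups overlapped. Over all libraries JAG1 had a log2 fold change of 0.15 (SE 0.127, edgeR adjusted p = 0.428). Without WT replicate 3, JAG1 passed with a log2 fold change of 0.33 (edgeR adjusted p = 0.00599), as did 34.7% of all genes tested in that fit. With the correction for length and GC content, JAG1 did not pass (log2 fold change 0.12, edgeR adjusted p = 0.384).

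JAG2 was at 41.6, 41.0 and 34.7 CPM in the WT against 38.4, 38.2 and 40.8 CPM in the METTL3-KO libraries. WT replicate 3 was the lowest library, and the METTL3-KO values lay inside the WT range. Its log2 fold change was 0.0009, with a 95% confidence interval from -0.19 to 0.19.

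DLL4 (chromosome 15, 41221538 to 41231271, plus strand) and DLL1 (chromosome 6, 170591294 to 170615653, minus strand) are Delta-like ligands, which secretory precursors of the crypt present to their neighbours. DLL4 had 104, 102 and 90 counts in the WT against 164, 138 and 118 in the METTL3-KO libraries. These were 3.79, 4.51 and 4.22 CPM against 5.44, 6.28 and 5.02 CPM, with every METTL3-KO library above every WT library. Such separation upwards was seen in 20.2% of all tested genes. DLL4 rose by 0.42 on the log2 scale (SE 0.139, 95% confidence interval 0.12 to 0.72, edgeR adjusted p = 0.0435). The call held without WT replicate 3 (edgeR adjusted p = 0.0338) and without METTL3-KO replicate 3 (0.0398). It was lost without WT replicate 1 (0.163), WT replicate 2 (0.0562), METTL3-KO replicate 1 (0.0945) or METTL3-KO replicate 2 (0.166), and DESeq2 gave an adjusted p of 0.0739. With the correction for length and GC content edgeR's adjusted p was 0.0509, and DLL4 passed in 7 of 15 fits in all.

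DLL1 had 23, 18 and 22 counts in the WT against 43, 22 and 19 in the METTL3-KO libraries, so that METTL3-KO replicate 1 alone lay above the rest. Its log2 fold change was 0.31 (SE 0.285, edgeR adjusted p = 0.471) and dropped to 0.03 without that library. The exons of DLL1 share 370 bases with FAM120B on the opposite strand, those of JAG1 306 bases with an opposite-strand long noncoding RNA, and those of JAG2 469 bases with one on the same strand. The strand setting of the counting is not given in the sources used here.

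As shares of the summed ligand level per kb, JAG2 made up 54.3% ± 6.61 in WT against 50.8% ± 3.20 in METTL3-KO cells, and JAG1 35.8% ± 6.38 against 37.1% ± 2.10 (mean ± SD over 3 libraries). DLL4 made up 7.30%, 8.38% and 7.68% in the WT against 9.42%, 10.7% and 9.01% in the METTL3-KO libraries, higher in all 3 of the latter. DLL1 made up 2.06% ± 0.252 and 2.34% ± 0.660. The summed ligand level was 10.9, 11.3 and 11.6 CPM per kb in the WT against 12.1, 12.3 and 11.7 in the METTL3-KO libraries, without overlap. With the longest transcript as length in place of all exons, the summed ligand levels overlapped, at 13.9, 14.5 and 15.3 against 15.9, 16.2 and 15.1 CPM per kb, while the DLL4 shares still did not. These shares are descriptions and were not tested.

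**Figure D2:**
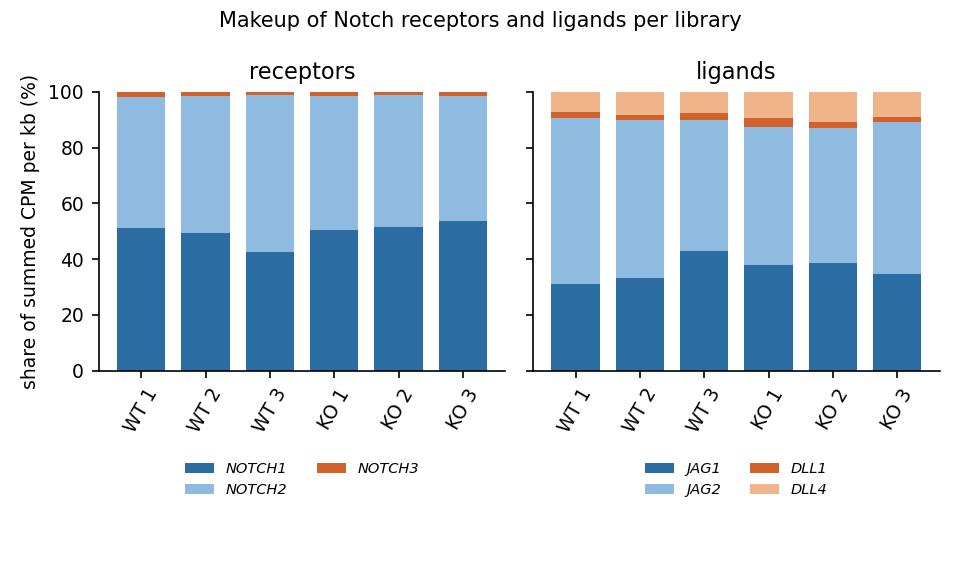
Share of each receptor (left) and ligand (right) in the summed CPM per kilobase of exon, in percent, in each WT and METTL3-KO (KO) library. NOTCH1 and NOTCH2 make up nearly all of the receptor level, and JAG2 and JAG1 most of the ligand level. The DLL4 share is 7.30% to 8.38% in WT and 9.01% to 10.7% in METTL3-KO libraries.

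The targets report on the pathway's output. HES1 (chromosome 3, 193853937 to 193856521, plus strand) is a transcriptional repressor and the best known Notch target of the intestine. It was at 50.1, 48.9 and 41.7 CPM in the WT against 37.5, 38.3 and 44.1 CPM in the METTL3-KO libraries. Replicates 1 and 2 of the groups were well apart, while WT replicate 3 lay low and METTL3-KO replicate 3 high enough to overlap. The log2 fold change was -0.23 (SE 0.0952, 95% confidence interval -0.44 to -0.03), with an unadjusted p of 0.0310 in edgeR's test and an adjusted p of 0.0942. Without WT replicate 3 its log2 fold change was -0.31 (edgeR adjusted p = 0.00436). Without METTL3-KO replicate 3 it was also -0.31 (edgeR adjusted p = 0.0485). In the 4 other fits that left out 1 library, HES1 did not pass (edgeR adjusted p up to 0.291). It passed in 4 of 15 fits in all.

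Corrected for length and GC content, HES1 was at 47.6, 46.6 and 45.6 CPM in the WT against 38.6, 39.8 and 41.7 CPM in the METTL3-KO libraries. After this correction the groups no longer overlapped, as was the case downwards for 24.8% of the annotated genes tested. The log2 fold change was then -0.22 (edgeR adjusted p = 0.0153), close to the uncorrected value of -0.23, and the SD of the WT libraries was 0.992 CPM in place of 4.52. The correction takes length and GC trends out of each library, so a smaller SD follows from it and is no separate result.

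NRARP (chromosome 9, 140194083 to 140196723, minus strand) encodes a small ankyrin-repeat protein that Notch induces and that feeds back to limit Notch. It was at 67.0, 67.3 and 50.5 CPM in the WT against 55.9, 53.0 and 63.6 CPM in the METTL3-KO libraries. WT replicate 3 was the lowest of all 6 and METTL3-KO replicate 3 the highest of its group. That gave a log2 fold change of -0.10 (SE 0.114, edgeR adjusted p = 0.557). Without WT replicate 3 it was -0.22 (edgeR adjusted p = 0.0289), and with the correction for length and GC content -0.10 (adjusted p = 0.274). NRARP thus passed only where WT replicate 3 was left out, among the alternatives run.

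HEY1, a repressor related to the HES proteins and prominent in blood vessels, had 7, 9 and 5 counts in the WT against 10, 7 and 5 in the METTL3-KO libraries. The log2 fold change was -0.02 with a 95% confidence interval from -1.02 to 0.97, so that a change within these bounds was not detectable at this depth. Of the other HES and HEY genes, 7 of 8 were tested and 1 passed. This was HES2, named after its values were seen because it fell below the level set for naming. It had 3, 4 and 2 counts in the WT against 20, 21 and 34 in the METTL3-KO libraries, a log2 fold change of 2.95 (SE 0.473, edgeR adjusted p = 0.000696). HES4 and HES6, also named after their values were seen, had log2 fold changes of -0.15 (SE 0.177) and 0.11 (SE 0.162).

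Across the 10 members, 0 passed as lower and 1 as higher (adjusted p under 0.05, edgeR), against 13.2% lower and 13.3% higher of all 22452 tested genes. At an unadjusted p under 0.05 there were 2 of 10, DLL4 and HES1, against 37.5% of all tested genes. Of the 8 members with a mean of at least 1 CPM, 1 passed, against 38.2% of genes at that level. The median log2 fold change was -0.01 for the members and -0.02 for all tested genes. Without WT replicate 3, 4 of the 10 passed (JAG1 and DLL4 higher, HES1 and NRARP lower), against 34.7% of all genes tested in that fit. Without replicate 3 of both groups the same 4 passed, against 44.1%. With the correction for length and GC content 1 passed, HES1, against 31.7%. Left out singly, WT replicate 1, WT replicate 2, METTL3-KO replicate 1 and METTL3-KO replicate 2 each took away every call among the members, while 20.7%, 21.3%, 19.3% and 19.2% of all genes passed. Without METTL3-KO replicate 3, DLL4 and HES1 passed, against 23.1%. DESeq2 called 0 members and 25% of all genes. DLL4 alone passed with RLE normalization (26.6% of all genes) and with the filterByExpr filter (37.4%), and DLL4 and NOTCH2 passed with no filter beyond 1 count (22.3%).

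**Figure D3:**
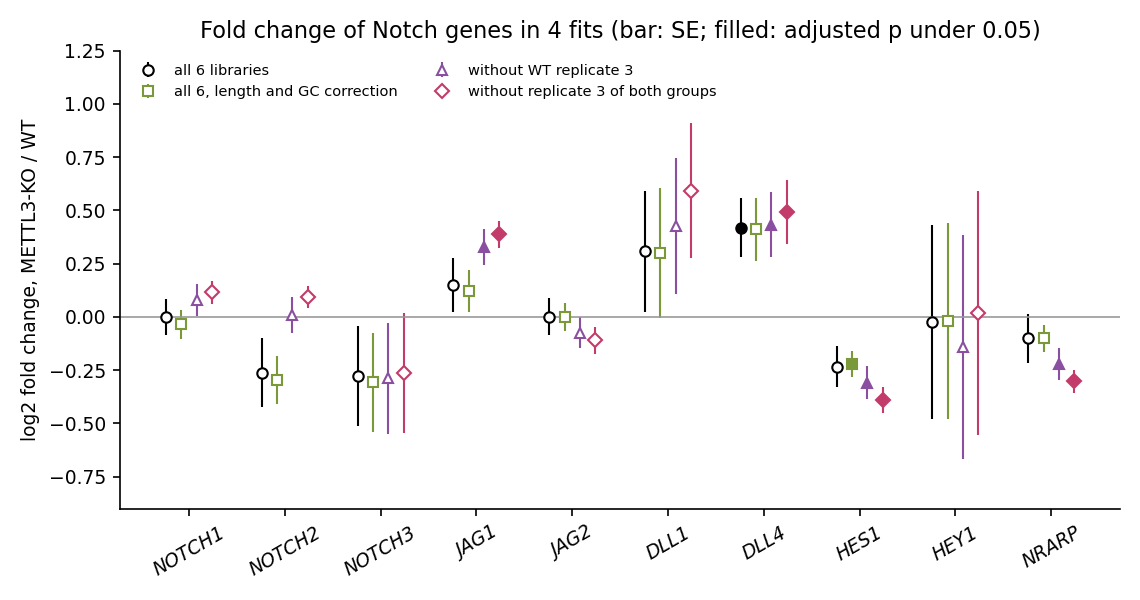
Log2 fold change of each Notch gene, METTL3-KO over WT, in 4 edgeR fits: all 6 libraries (black circles), all 6 with a correction for length and GC content (green squares), without WT replicate 3 (purple triangles) and without replicate 3 of both groups (red diamonds). Bars are 1 SE and filled symbols passed at an adjusted p under 0.05. NOTCH2 moves from -0.26 to 0.007 without WT replicate 3, while DLL4 stays above 0 and HES1 below 0 in all 4.

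The shifts of replicate 3 are given by exon length, since they went with length over all genes. In WT replicate 3, NOTCH2 (16744 bases of exon) lay at 1.61, JAG1 (9298 bases) at 1.39 and NOTCH1 (12531 bases) at 1.16 times the mean of the other WT libraries. The short HES1 (2059 bases) and NRARP (2641 bases) lay at 0.843 and 0.751 times that mean. In METTL3-KO replicate 3 the order was turned round, with NOTCH2 at 0.817 and JAG1 at 0.869 but HES1 at 1.16 and NRARP at 1.17 times the mean of the other METTL3-KO libraries. DLL4 (4754 bases) lay at 1.02 in the WT and 0.856 in the METTL3-KO group. JAG2 did not follow the order of length: with 6396 bases it is longer than DLL4, but it lay at 0.841 and 1.07, like the short genes. Of the members with few counts, NOTCH3 (9408 bases) lay at 0.964 and 0.960, HEY1 (5487 bases) at 0.718 and 0.654, and DLL1 (3819 bases) at 1.26 and 0.666, also outside that order.

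The m6A enzyme complex prefers the letters GGACT within its motif. The longest annotated transcript of every member holds it, at 0.520 per kb for JAG2 to 2.06 per kb for HEY1. The median was 1.22 per kb for the 10 members and 0.938 for 13565 tested protein-coding genes, of which 93.7% hold it at least 1 time. DLL4, with 7 matches (2.04 per kb), and HES1, with 3 (1.90 per kb), lay above the upper quartile of 1.38, as did HEY1 (2.06 per kb) and NOTCH2 (1.40 per kb), and NRARP, with 2 (0.757 per kb), below the median. A match of letters does not say that a site was methylated.

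A further 68 genes of the pathway were taken by role from hand-written lists, and 61 were tested. Of these, 10 fell and 17 rose in METTL3-KO cells (adjusted p under 0.05, edgeR), that is 44.3% against 26.5% of all tested genes. At a mean of at least 1 CPM it was 25 of 51, or 49.0%, against 38.2%. The lists were written with earlier results of these data known, so these shares cannot be read as a result about the pathway. The counts by role below stand beside 13.2% lower and 13.3% higher of all tested genes. Without replicate 3 of both groups, 17 were lower and 26 higher. Of the 27 calls, 15 passed in every alternative run, 5 lower and 10 higher.

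For the cleavage that releases the intracellular domain, 2 of 8 genes fell, 1 rose and 5 did not pass (median log2 fold change -0.14). NCSTN, the gamma-secretase subunit that receives the substrate, was at 78.4, 79.6 and 79.4 CPM in the WT against 52.8, 52.4 and 51.2 CPM in the METTL3-KO libraries, which is -0.60 on the log2 scale (SE 0.0685, edgeR adjusted p = 6.59e-05). ADAM10, the protease of the ligand-dependent cut, was at 143, 147 and 178 CPM against 108, 111 and 92.8 CPM, a log2 fold change of -0.58 (SE 0.0993, edgeR adjusted p = 0.00102). APH1B, another gamma-secretase subunit, rose by 0.78 (SE 0.102). For maturation and glycosylation of the receptor, 2 of 6 fell and 1 rose. POGLUT1, which puts O-glucose on the receptor's EGF repeats, had a log2 fold change of -0.68, FURIN of -0.22 and MFNG, a Fringe, of 0.45. With 1 library left out, FURIN passed only without WT replicate 3 and MFNG only without WT replicate 2 (edgeR adjusted p up to 0.122 and 0.149).

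For ligand endocytosis, 1 of 6 fell and 2 rose. EPN1, an endocytic adaptor, had a log2 fold change of 0.59, NEURL1 of 0.76 and MIB2, both ubiquitin ligases that act on ligands, of -0.32. In the nuclear activation complex, RBPJ itself was at 70.6 ± 8.90 CPM in WT against 70.2 ± 4.95 CPM in METTL3-KO cells (log2 fold change -0.007, SE 0.0966). There, 2 of 8 fell and 1 rose, with MAML2 at a log2 fold change of 0.71 and the acetyltransferases KAT2B at -0.55 and KAT2A at -0.35. Of 8 co-repressors, 4 rose and 1 fell (median 0.22): TLE3 had a log2 fold change of 0.75, TLE4 of 0.61 and HDAC1 of 0.46. CIR1 (0.38) and TLE2 (-1.36, on 4 to 24 counts a library) are named after their values were seen. Of 8 inhibitors and turnover genes tested, 3 rose and 1 fell, among them DTX2 at 0.39, ITCH, a ubiquitin ligase, at 0.34 and NUMBL, a relative of the Notch inhibitor NUMB, at -0.46. With 1 library left out, edgeR adjusted p-values rose to at most 0.0605 for NEURL1 (lost without WT replicate 2 or METTL3-KO replicate 1), 0.0504 for DTX2 (METTL3-KO replicate 2), 0.0837 for MIB2 (WT replicate 2, METTL3-KO replicate 1 or 2) and 0.116 for KAT2B (WT replicate 1, METTL3-KO replicate 1 or 3). They rose to 0.0792 for KAT2A and 0.0843 for ITCH, both lost without replicate 1 or 2 of either group, and to 0.151 for TLE2, lost without WT replicate 1 or 2 or METTL3-KO replicate 1 or 3.

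**Figure D4:**
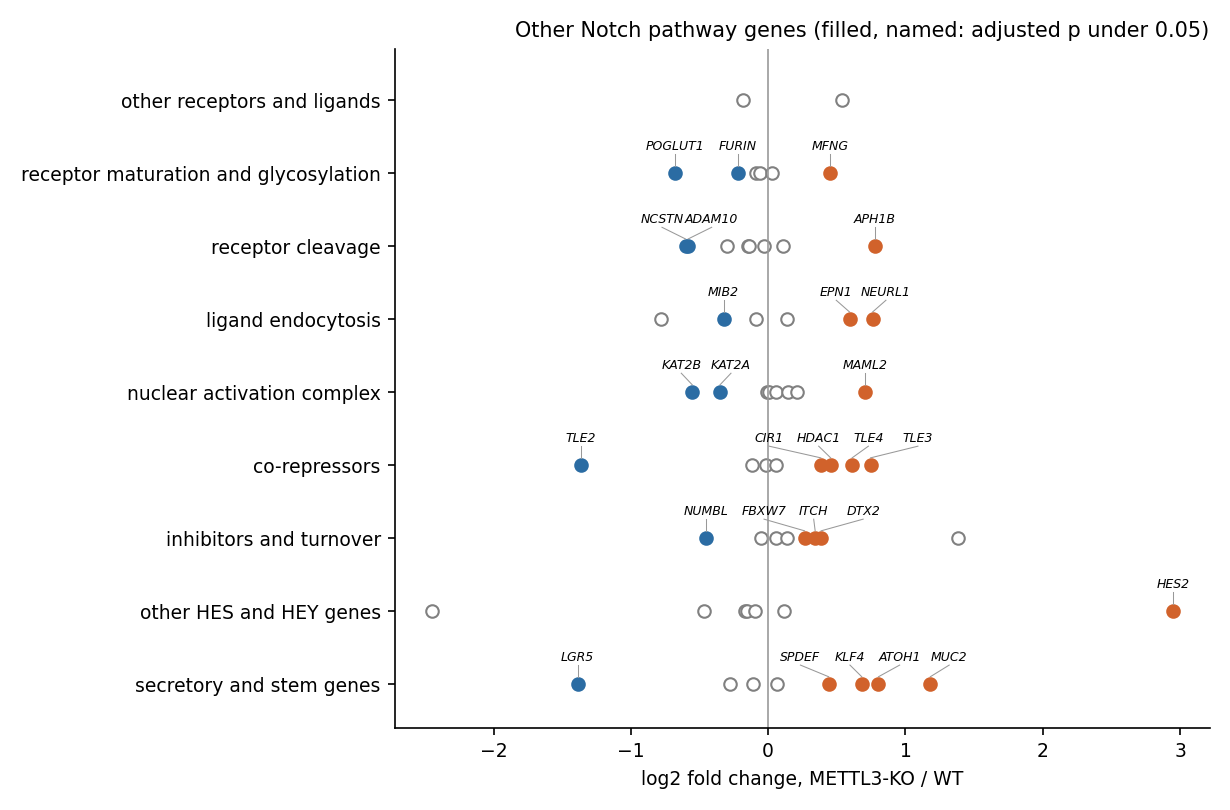
Log2 fold change, METTL3-KO over WT, of the tested genes of 9 hand-written pathway lists other than the 10 members, with each circle 1 gene. Filled and named circles passed at an adjusted p under 0.05 in edgeR's test, orange higher and blue lower. Of the co-repressors 4 are higher and 1 lower, while 13.3% of all tested genes are higher and 13.2% lower. Of genes with a mean of at least 1 CPM, 38.2% passed in either direction. The lists were written with earlier results of these data known, so these counts cannot be read as a result about the pathway.

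Genes of the secretory and stem compartments, which Notch output normally holds in balance, were read last. Of 10 tested, DLL4 and DLL1 included, 5 rose, 1 fell and 4 did not pass (median log2 fold change 0.36). Of all tested genes, 13.3% rose and 13.2% fell, and 38.2% of those with a mean of at least 1 CPM passed in either direction. This list too was written with earlier results of these data known, so its counts cannot be read as a result. MUC2, the goblet cell mucin, was at 11.2, 12.3 and 14.9 CPM in the WT against 32.0, 30.9 and 23.8 CPM in the METTL3-KO libraries, a log2 fold change of 1.18 (SE 0.134, edgeR adjusted p = 6.51e-05). LGR5, the receptor that marks crypt stem cells and is itself a Wnt target, was at 8.49, 8.76 and 9.71 CPM against 3.88, 2.82 and 3.49 CPM, a log2 fold change of -1.39 (SE 0.139, edgeR adjusted p = 2.72e-05). ATOH1, the secretory factor that HES1 represses, had 40, 25 and 17 counts in the WT against 55, 42 and 53 in the METTL3-KO libraries, a log2 fold change of 0.80 (SE 0.240, edgeR adjusted p = 0.0272). That call was lost without WT replicate 2 or without any one METTL3-KO library (edgeR adjusted p up to 0.0852). KLF4 (log2 fold change 0.68) and SPDEF (0.44), goblet cell factors, also passed and are named after their values were seen.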

How the data were processed

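RNA-seq counts of 3 WT and 3 METTL3-KO samples were used, with groups and replicate numbers from the sample titles. The authors mapped paired reads to hg19 with TopHat v2.0.11 and an Ensembl GRCh37 transcript index and used htseq-count (union mode) for counting. The deposited counts are raw, per gene symbol, with replicates kept apart. Reads that aligned to several places (13.4% to 14.7%), to several genes or to none were not counted to a gene. The members, the lists and the length and GC correction were chosen with earlier results of these data known.

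Genes with fewer than 5 counts in both conditions were removed. edgeR 4.0.16 (R 4.3.3) gave TMM-scaled CPM and a two-sided quasi-likelihood test with Benjamini-Hochberg adjustment over all 22452 genes. The SE is the log2 fold change over the square root of F. The test was checked on simulated data with known changes. Exon length is the union of exons in a GENCODE annotation lifted to GRCh37, which matched 33872 of 56638 symbols. The correction fitted each library's deviations from the mean of all 6 libraries, using genes whose mean log2 CPM was over 3. It used splines (5 degrees of freedom each) in exon length and GC content. Trends with length or GC content that differ between the groups were thus removed as well. DESeq2 1.42.0, RLE, other filters, the replicate block and left-out samples were alternatives. Named were all members and, per list, up to 3 genes with an adjusted p under 0.05, a mean of at least 1 CPM and the largest change. A gene of the pathway lists is not reported here.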

Additional observations from a re-analysis of the deposited data

How the results depend on the processing

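Over all genes, 2959 were lower and 2986 higher. A block for the replicate number left 1719 and 1810 (15.7% of genes). Without replicate 3 of both groups there were 4823 and 4555, and with 1 library left out 1976 to 3793 lower and 2188 to 3809 higher. Deviations of same-numbered libraries correlated at -0.586, -0.390 and -0.784 across 10336 genes. Each deviation is from the mean of its own group, so the opposite shifts of replicate 3 enter all of these values. They cannot tell whether the numbers pair the samples. Under the block 0 members passed, DLL4 had a log2 fold change of 0.42 (edgeR adjusted p = 0.101), and the wider lists had 5 lower and 11 higher, against 10 and 17 without it.

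Of the members called lower (0 with all libraries), 1 passed with no filter beyond 1 count (NOTCH2, log2 fold change -0.26, edgeR adjusted p = 0.0204), 1 with the length and GC correction (HES1, -0.22, adjusted p = 0.0153, lost with correction and block at -0.22, adjusted p = 0.0764), 2 without replicate 3 of both groups (HES1, -0.39; NRARP, -0.30), and 0 to 2 with 1 library left out. Of those called higher (1), 0 passed with DESeq2 (DLL4 0.43), with the correction (0.41, edgeR adjusted p = 0.0509) and with correction and block (0.41, adjusted p = 0.0956), 2 without replicate 3 of both groups (JAG1 0.39, DLL4 0.49), and 0 to 2 with 1 library left out.

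With 1 library left out, log2 fold changes ran from -0.047 to 0.08 for NOTCH1, -0.38 to 0.007 for NOTCH2, 0.038 to 0.33 for JAG1, -0.07 to 0.049 for JAG2, 0.33 to 0.49 for DLL4, -0.31 to -0.18 for HES1, -0.15 to 0.24 for HEY1 and -0.22 to -0.025 for NRARP. NOTCH1 was above 0 with DESeq2 (0.0094), RLE (0.0094), filterByExpr (0.0051), no filter (0.0068), the replicate block (0.0022) and without replicate 3 of both groups (0.12). Without replicate 3 of both groups NOTCH2 was at 0.093, JAG2 at -0.11 and HEY1 at 0.02. The cause was not tested. HEY1 fell under the filter of filterByExpr. The wider lists had 5 to 12 lower and 12 to 21 higher with 1 library left out, and 17 lower and 26 higher without replicate 3 of both groups. With the longest transcript as length, NOTCH2 made up 54.4% of receptors in WT and 50.5% in METTL3-KO cells. JAG1 then made up 43.3% of ligands in WT and 44.6% in METTL3-KO cells. DLL1, NOTCH3 and HEY1 rest on few counts, and only large changes in them could be seen.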

Other observations

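The genes whose profile over the 6 libraries lay nearest to that of HES1 were ERP29, a chaperone of the endoplasmic reticulum (distance 0.0423 in centred log2 CPM), RPL7A, a ribosomal protein (0.0467), and HAUS8, a subunit of the augmin complex (0.0512), among 10352 genes with a mean of at least 8 CPM. Their log2 fold changes were -0.23, -0.22 and -0.21, and none passed. Nearest to DLL4 were FOS, an immediate-early transcription factor (distance 0.132), PIK3AP1 (0.153) and SYT13 (0.163), with log2 fold changes of 0.45, 0.37 and 0.45, and all 3 passed in edgeR's test with adjusted p-values of 0.00209, 0.0229 and 0.00508. Genes picked for so near a profile have nearly the same fold change by that choice, so these fold changes are no separate result. Distances over 6 libraries also take in depth and the shifts of replicate 3, and are given as descriptions.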
